A study of Mus musculus with 20 samples.

Results

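Genes whose symbol starts with Snora encode small nucleolar RNAs named after the box H/ACA class. Those starting with Scarna encode small Cajal body RNAs, which can be of the H/ACA class, the box C/D class or a composite of both. They were described in SIMS cells, a mouse salivary gland cell line, with and without the RNA decay factor Zcchc8. The gene table of the series listed 55471 genes, of which 51 carried such a symbol in GENCODE release M21. The 26 genes with at least 20 counts summed over the 20 libraries, 19 Snora and 7 Scarna genes, are the members described here. They were chosen by this count, summed over wild type and knockout libraries alike, which ran from 47 (Snora5c) to 10963 (Snora31). No gene lay between 0 and 47, and the 25 genes left out had 0 counts in every library, so any minimum from 1 to 47 counts gives the same members.

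Total RNA was sequenced from 5 groups of 4 libraries: unedited wild type cells, cells with a Cas9 knockout (KO) of Btbd7, which the submitters used as the negative control, and 3 clones with a Cas9 knockout of Zcchc8. All cells grew in DMEM with 10% fetal bovine serum. The labels name no separate cultures for the 4 libraries of a group, and each Zcchc8 KO group is 1 clone, so p-values measure only the spread between these libraries. The edited sites are not given. Zcchc8 itself had 61.6 to 68.1 CPM (counts scaled to library size, TMM) in the wild type libraries, 55.1 to 65.6 in clone 1, 21.9 to 24.9 in clone 2 and 50.4 to 60.6 in clone 3. The change was called in clone 2 (log2 fold change -1.48) and clone 3 (-0.26, adjusted p 0.0135) but not in clone 1 (-0.11, adjusted p 0.291), and a count over the whole gene does not read a small edit. Btbd7 had 95.8 to 103 CPM in its knockout and 185 to 218 CPM in all other libraries.

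Box H/ACA RNAs fold into hairpins that end in an ACA triplet close to the 3′ end, and they guide pseudouridylation. Those of the nucleolus pair with ribosomal RNA, and those of Cajal bodies pair with spliceosomal RNAs. They are bound by dyskerin (Dkc1), Gar1, Nhp2 and Nop10. In mammals most are cut out of the introns of host genes, many of which encode ribosomal proteins or translation factors, and their 3′ ends are then trimmed by the nuclear exosome and other nucleases. Zcchc8 holds together the NEXT complex (for nuclear exosome targeting), which with Rbm7 and the helicase Mtrex brings nuclear transcripts, extended small nucleolar RNAs among them, to the exosome.

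The sequences of the members that the results turn on are shown first, as the DNA letters of the GENCODE M21 transcripts on GRCm38. Snora31 (ENSMUSG00000065147.1, chr14:75847905-75848034, plus strand) lies in an intron of Tpt1, Snora21 (ENSMUSG00000064901.1, chr11:97781639-97781775, minus strand) in an intron of Rpl23, and Snora19 (ENSMUSG00000095530.1, chr19:60774330-60774461, minus strand) in an intron of Eif3a. These 3 had the largest rises. Snora57 (chr19:8888538-8888685, minus strand) rose and has no annotated host. Scarna13 (ENSMUSG00000088789.1, chr12:105031075-105031349, minus strand), in the noncoding host Snhg10, was the member that fell. Snora73b (chr4:132352322-132352526, minus strand) was the most abundant member in wild type. Capitals mark the ACA nearest the 3′ end.

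Snora31: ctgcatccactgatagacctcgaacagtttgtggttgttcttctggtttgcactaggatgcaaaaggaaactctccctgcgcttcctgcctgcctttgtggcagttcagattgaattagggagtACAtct
Snora21: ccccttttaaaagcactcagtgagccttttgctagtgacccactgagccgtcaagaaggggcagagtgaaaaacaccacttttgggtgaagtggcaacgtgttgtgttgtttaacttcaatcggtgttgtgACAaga
Snora19: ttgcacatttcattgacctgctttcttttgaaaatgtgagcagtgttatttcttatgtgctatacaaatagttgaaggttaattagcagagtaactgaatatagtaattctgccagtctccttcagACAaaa
Snora57: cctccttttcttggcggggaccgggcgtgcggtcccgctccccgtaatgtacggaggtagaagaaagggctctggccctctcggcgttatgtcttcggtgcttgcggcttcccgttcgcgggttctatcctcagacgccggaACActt
Scarna13: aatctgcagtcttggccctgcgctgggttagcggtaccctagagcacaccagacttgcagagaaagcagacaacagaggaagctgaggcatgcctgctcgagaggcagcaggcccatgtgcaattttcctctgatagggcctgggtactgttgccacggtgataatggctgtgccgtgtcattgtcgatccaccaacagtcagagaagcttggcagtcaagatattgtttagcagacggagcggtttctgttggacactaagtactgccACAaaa
Snora73b: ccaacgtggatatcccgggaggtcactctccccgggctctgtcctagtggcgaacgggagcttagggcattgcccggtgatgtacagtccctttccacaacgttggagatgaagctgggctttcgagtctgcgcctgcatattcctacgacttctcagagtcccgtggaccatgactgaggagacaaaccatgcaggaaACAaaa

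In 19 of the 26 members (73.1%) an ACA stood exactly 3 bases before the end of the annotated transcript, which all 6 of these share. It did so in 18 of the 25 genes with 0 counts, in 0 of 99 Snord genes, which encode box C/D RNAs, and in 2.32% of all M21 transcripts of at least 60 and under 1000 bases. The 7 members without it were Scarna17, Scarna2, Scarna3a, Scarna6, Scarna9, Snora17 and Snora47. Snora17 and Scarna3a had the ACA 2 bases from the end and Snora47 had it 4 bases from the end. Scarna6 (chr1:87784556-87784820, plus strand), Scarna9 (chr9:15326264-15326333, minus strand) and Scarna17 instead held TGATGA within the first 25 bases and CTGA within the last 25, on the transcript strand. These are letters of the boxes C and D, and 69.7% of Snord genes and 0.543% of all transcripts of that length had both. Scarna2 had no ACA near its end and held CTGA within the last 25 bases, but no TGATGA within the first 25. RNAs with box C and D letters can be of the C/D class or a composite of both classes, and these letters alone do not settle which. Scarna6 and Scarna9 are shown with these C and D letters in capitals.

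Scarna6: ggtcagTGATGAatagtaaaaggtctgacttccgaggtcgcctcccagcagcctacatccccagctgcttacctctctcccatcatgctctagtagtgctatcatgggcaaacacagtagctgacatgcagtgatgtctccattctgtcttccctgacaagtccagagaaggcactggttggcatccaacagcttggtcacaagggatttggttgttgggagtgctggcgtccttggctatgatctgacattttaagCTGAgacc
Scarna9: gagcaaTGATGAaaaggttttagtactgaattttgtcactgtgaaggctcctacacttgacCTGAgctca

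The libraries held 6833258 to 17771804 counts in genes, and the 4 libraries of clone 1 were all shallow (6833258 to 7683444). Wild type replicate 1 stood apart from the others, with 14245 genes with a count against at least 17442 elsewhere and 7.24% of counts in mitochondrial genes. All 8 epithelial markers checked had a mean of at least 1 CPM, against 2 of 5 acinar markers, of which Smgc and Muc19 were at 0 throughout, and 0 of 3 endothelial ones. The summed CPM of 4 immune markers, with Adgre1 at 0 throughout, was 8.07 to 13.4 in clone 1, 9.26 to 11.0 in clone 2 and 4.09 to 6.63 in clone 3, with 4.52 to 6.19 in wild type, and 6 fibroblast markers, with Lum at 0 throughout, summed to 11.4 to 18.5 CPM in wild type, 10.2 to 14.2 in clone 1, 24.4 to 28.2 in clone 2, 22.2 to 26.3 in clone 3 and 22.5 to 35.2 in Btbd7 KO. The 5 acinar markers summed to 167 to 188 CPM in wild type, 136 to 164 in clone 1, 127 to 155 in clone 2, 115 to 124 in clone 3 and 109 to 115 in Btbd7 KO, so every knockout library lay below wild type. The part of these differences in the results was not tested.

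Among the 51 genes, being counted went with where the annotation puts them. Of the 25 genes at 0, 24 lay under an exon of another gene on the same strand, and 20 were covered by it entirely. The other 4 were covered for 77.9% to 91.4% of their length, and Snora35, in the serotonin receptor gene Htr2c, was the exception with no such exon. Snora16a and Snora43 are each listed under more than 1 overlapping record among the 25. The only exon over a Snora43 record is that of its other record. Of the 26 counted genes 8 were covered in part, at most for 93.4% (Snora5c), and none entirely. The others were Snora73a (77.6%), Snora2b (67.2%, by its host Kansl2), Snora34 (66.7%), Snora19 (51.5%), Snora36b (48.5%), Scarna3a (46.4%) and Scarna13 (23.6%). What this overlap does to their counts was not tested. Not 1 of the 20 fully covered genes had a count in any library. Snora73b is covered entirely by an exon of the opposite strand and had 6748 counts. The box C/D genes showed the same split: all 37 fully covered Snord genes were at 0, although 18 further Snord genes without a same-strand exon were at 0 too.

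**Figure D1:**
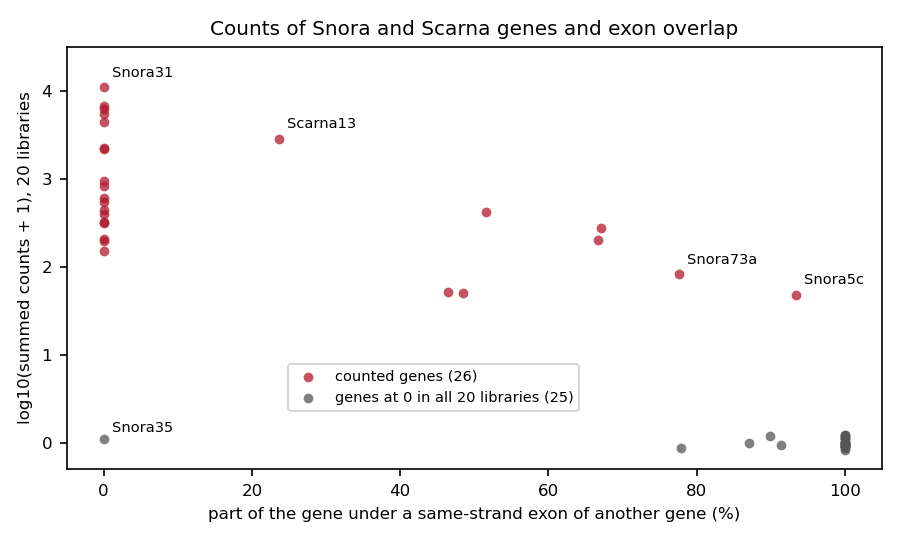
Summed counts over 20 libraries, as log10(counts + 1), against the share of each Snora or Scarna gene that lies under a same-strand exon of another gene in GENCODE M21. Points at 0 are spread slightly up and down for visibility. The genes covered for 100% all sit at 0 counts, and the 26 counted genes reach at most 93.4%.

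The genes at 0 are therefore not shown to be silent. Of the 25, 8 lie in ribosomal protein genes (Snora3 in Rpl27a, Snora52 in Rplp2, Snora7a in Rpl32) and 6, with both records of Snora16a, in Snhg genes, against 3 and 2 of the 26 counted genes. The rule for reads shared between genes is not given in the sources used here. Terc, the telomerase RNA, whose 3′ part is of the H/ACA type, was also listed at 0 in all 20 libraries.

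Levels per gene length ranged widely among the counted members. Averaged over all libraries, Snora31 stood at 428 CPM per kilobase, Snora21 at 188, Snora23 at 146, Snora73b at 135, Snora57 at 65.8 and Scarna2 at 45.5. The 4 least abundant were Snora36b, Snora73a, Snora5c and Scarna3a, at 1.35 to 1.51 CPM per kilobase. The order differed between the groups. In wild type Snora73b led with 146 CPM per kilobase, followed by Snora23 with 112 and Snora31 with 102. In each of the 3 Zcchc8 KO clones Snora31 came first and Snora21 second, at 1113 and 373 CPM per kilobase in clone 1. Snora73b is known as U17, an H/ACA RNA that takes part in cleavage of the ribosomal RNA precursor. Its reads may be shared with Snora73a, 98.0% identical to it, so both are uncertain.

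The summed level of the 26 members was 137 ± 5.96 CPM in wild type (SD, n = 4), 122 ± 7.49 in Btbd7 KO, 357 ± 26.9 in clone 1, 217 ± 16.8 in clone 2 and 225 ± 10.2 in clone 3. All 12 Zcchc8 KO libraries lay above all 8 others. Much of the sum came from Snora31 and Snora21. Without them the group means were 118, 106, 161, 127 and 137 CPM in the same order, and clone 2 overlapped wild type.

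Does loss of Zcchc8 change these RNAs? In the 3 Zcchc8 KO clones on average 10 of the 22 members with enough counts for the test rose over wild type and 1 fell (edgeR's quasi-likelihood test, adjusted p under 0.05 over all 15297 genes tested). That is 45.5% of the tested members, where 16.2% of all genes tested rose, and 4.55% that fell, where 19.9% of all genes did. The risers were Snora19, Snora21, Snora31, Snora2b, Snora69, Snora20, Snora17, Snora57, Scarna6 and Snora23, and Scarna13 fell. The median log2 fold change was 0.65 over the 22 members and -0.0057 over all genes. A gene enters the test if its counts suffice in any 4 libraries, so a member can pass through the Zcchc8 KO libraries alone. Snora19 passed that way, and Snora20, Snora2b, Snora34, Snora41 and Scarna17 also needed some of these libraries. For these members the filter favoured a rise. Snora19, Snora20 and Snora2b are counted among the 10 risers, and the others among the 22 tested. Snora5c, Snora36b, Scarna3a and Snora73a, with 47, 49, 51 and 81 counts in all, did not pass. With counts summed per cell line and the 3 Zcchc8 KO clones set against 2 control lines, wild type and Btbd7 KO, 7 of 25 members tested rose and 0 fell (5.34% and 0.951% of all genes tested that way), and Snora69, Scarna6, Snora23 and Scarna13 were not called. That setting changes the control and the genes tested as well as the replicate unit. In bulk RNA a change in the number of cells that carry an RNA and a change in RNA per cell cannot be told apart, and these counts do not separate the mature RNA from its extended forms or from host intron reads.

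Snora31 and Snora21, guides for ribosomal RNA modification, carried most of the added counts. Snora31 stood at 14.3, 12.3, 14.0 and 12.4 CPM in the wild type libraries and at 7.60, 10.5, 9.68 and 8.95 in Btbd7 KO. It reached 160.1, 155, 148 and 116 CPM in clone 1, 42.8, 61.3, 43.1 and 66.8 in clone 2, and 47.5, 61.8, 69.9 and 51.5 in clone 3. Every Zcchc8 KO library lay above every control library, and clone 1 lay above the other clones without overlap. The mean log2 fold change was 2.53 (SE 0.133, adjusted p 2.08e-13).

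Snora21 stood at 7.41, 4.51, 2.99 and 5.16 CPM in wild type and at 6.03, 5.04, 7.94 and 7.10 in Btbd7 KO. In clone 1 it was at 50.1, 47.3, 51.5 and 55.3 CPM, in clone 2 at 38.4, 34.7, 37.1 and 35.2, and in clone 3 at 31.0, 27.9, 29.2 and 32.0. The 3 clones did not overlap the controls or each other, while wild type and Btbd7 KO overlapped. Its log2 fold change of 2.92 (SE 0.148, adjusted p 1.2e-13) is 7.56-fold. A copy 97.8% identical, Gm23795, had 0 counts.

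Snora19 was rare in the controls and had the largest change of the 22 tested members. It entered the test through the Zcchc8 KO libraries alone, so its entry and its rise rest on the same values. Wild type held 0.195, 0.347, 0.224 and 0.410 CPM and Btbd7 KO 0, 0.133, 0 and 0.0845, which is 0 to 7 counts per library. Clone 1 held 4.30, 3.25, 3.33 and 4.97 CPM, clone 2 held 3.84, 2.64, 3.37 and 0.967, and clone 3 held 3.56, 2.39, 2.04 and 3.41. Again no control library reached any Zcchc8 KO library. The log2 fold change was 3.34 (SE 0.449, adjusted p 2.21e-06). Gm23658 has the identical sequence, so reads may be split between the copies and its counts are no independent result. Gm23658 had 0 counts in all 8 wild type and Btbd7 KO libraries and 34 counts over the Zcchc8 KO libraries.

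Snora20, Snora69 and Snora57, also ribosomal RNA guides, rose without overlap with wild type. Snora20 had 0.299 to 1.58 CPM in wild type and 1.92 to 4.60 in the 12 Zcchc8 KO libraries (log2 1.78, SE 0.356, adjusted p 0.000307). Snora69 had 0.235 to 0.868 CPM in wild type and 1.13 to 3.06 in Zcchc8 KO (log2 1.80, SE 0.38, adjusted p 0.000549). Snora57 had 4.62 to 6.51 CPM in wild type and 7.95 to 16.9 in Zcchc8 KO (log2 1.12, SE 0.189, adjusted p 4.78e-05), while 1 Btbd7 KO library reached 10.2. Its copy Gm26132, 95.9% identical, had 91 counts in all, so Snora57 reads may be shared.

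Snora17, Snora23 and Snora2b rose with overlap. Snora17 ran from 0.650 to 2.02 CPM in wild type and from 1.23 to 6.37 in Zcchc8 KO, where replicate 1 of clone 2 was the lowest (log2 1.37, adjusted p 0.00159). Snora23 ran from 15.9 to 22.8 CPM in wild type and from 19.7 to 43.2 in Zcchc8 KO, where replicate 2 of clone 3 was the only library inside the wild type range (log2 0.64, SE 0.114, adjusted p 9.89e-05). Snora2b had 0, 24, 2 and 0 counts in wild type, or 0, 1.39, 0.150 and 0 CPM, and 0.542 to 3.33 CPM in Zcchc8 KO (log2 2.10, SE 0.704, adjusted p 0.0213). This call rests on few counts: it was lost without wild type replicate 3 (adjusted p 0.0647) or replicate 4 (0.0638) and with Btbd7 KO as the control (0.0538), and the log2 value was 4.98 without wild type replicate 2.

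**Figure D2:**
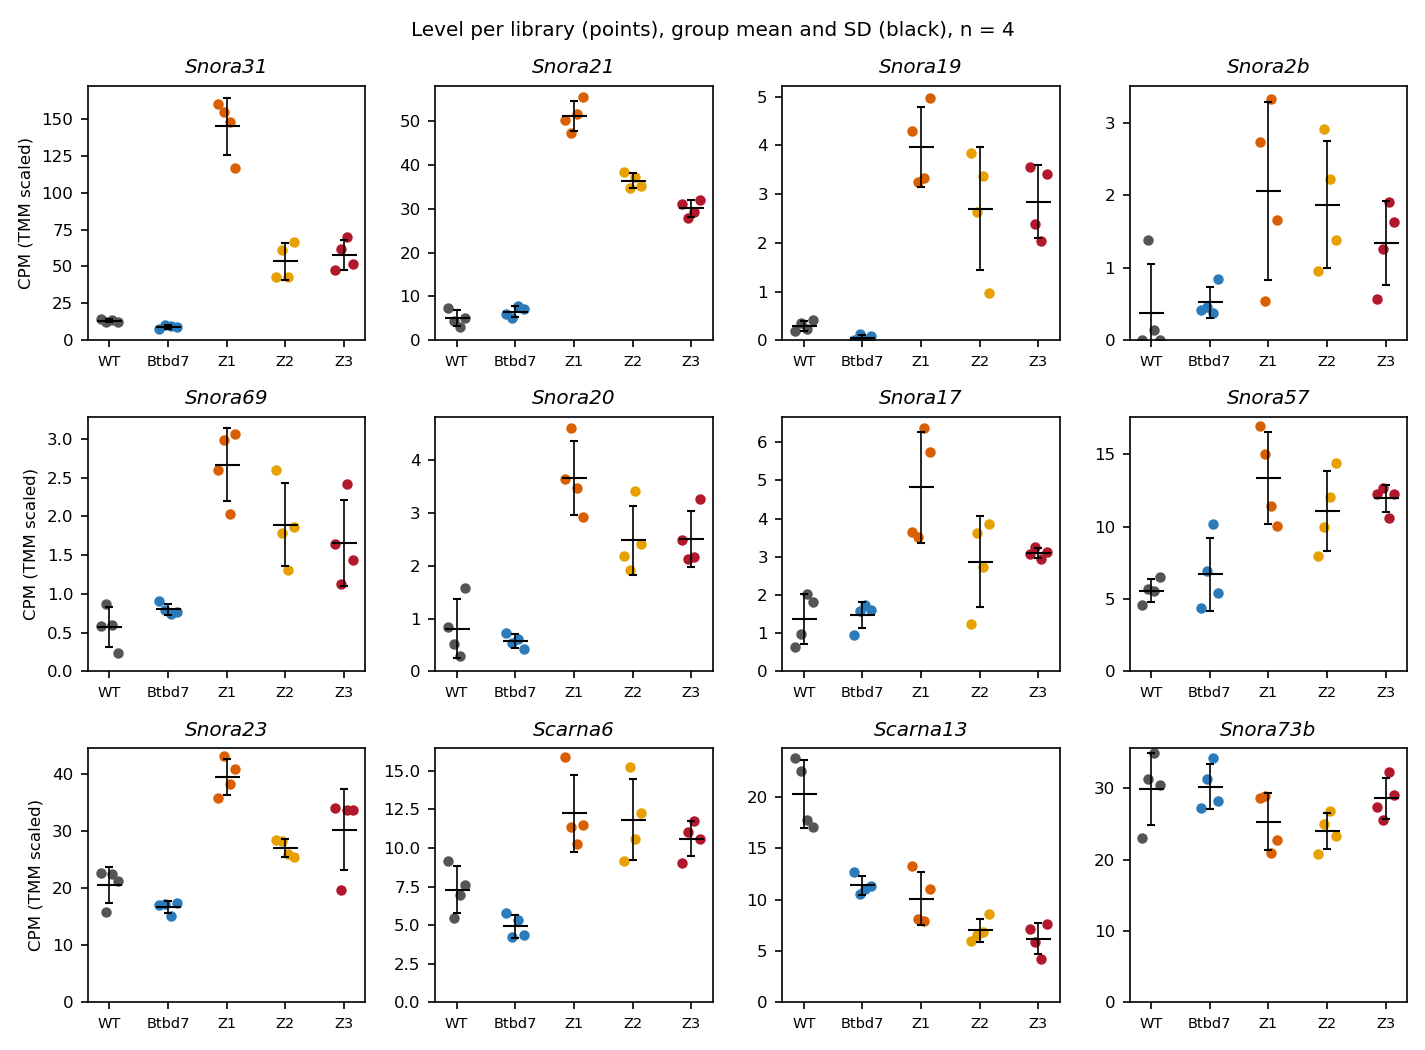
CPM (TMM scaled) of 12 members in every library, with the mean (long bar) and SD of each group of 4. WT is wild type, Btbd7 is Btbd7 KO and Z1, Z2 and Z3 are Zcchc8 KO clones 1, 2 and 3. Snora31 reaches 160.1 CPM in clone 1 and at most 14.3 in wild type, while Scarna13 falls from 17.1 or more in wild type to at most 13.3.

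Of the Cajal body RNAs 2 of 6 tested passed, in opposite directions. Scarna6, which holds the box C and D letters shown above, stood at 9.17, 5.50, 6.95 and 7.62 CPM in wild type and at 9.04 to 15.9 in Zcchc8 KO (log2 0.66, SE 0.157, adjusted p 0.00175). Only wild type replicate 1 came within the Zcchc8 KO range. Scarna13, known as U93 and a guide for spliceosomal RNAs, stood at 23.8, 22.5, 17.8 and 17.1 CPM in wild type and at 12.7, 10.6, 11.0 and 11.3 in Btbd7 KO. It was at 13.3, 8.12, 7.96 and 11.1 CPM in clone 1, 6.03, 6.55, 6.90 and 8.64 in clone 2, and 7.12, 5.90, 4.21 and 7.63 in clone 3. All 12 Zcchc8 KO libraries were below wild type, and those of clone 1 overlapped Btbd7 KO (log2 -1.40, SE 0.138, adjusted p 1.9e-08).

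The other 4 Cajal body RNAs did not pass. Scarna2, a guide for U2 RNA with no annotated host, had a log2 value of 0.43 (adjusted p 0.134), with wild type replicate 1 low at 5.59 CPM and replicate 2 high at 25.6. Without replicate 1 it stood at 0.17 (adjusted p 0.409), and it was called without replicate 2 (0.80, adjusted p 0.00444) and with no filter. Scarna8 stood at 0.46 (adjusted p 0.39), with wild type replicate 1 at 4.68 CPM against 0.523 to 1.82 in the other 3. Without that library it was called at 1.29 (adjusted p 0.00487). Scarna17 was at 0.64 (adjusted p 0.338), with a copy identical to it over 88.6% of its length, and Scarna9 at 0.025 (adjusted p 0.965).

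Of the other tested Snora genes none was called. Their log2 values were 1.67 for Snora34 (SE 0.715, adjusted p 0.0702), 0.93 for Snora30 (adjusted p 0.0823), 0.14 for Snora47, -0.075 for Snora78, -0.20 for Snora73b (SE 0.102, adjusted p 0.122), -0.48 for Snora41 and -0.80 for Snora62. Snora34 had 0, 19, 2 and 3 counts in wild type and was called without wild type replicate 2 (log2 3.33, adjusted p 0.00415), with DESeq2 (0.032), with the replicate block (0.0473), with no filter (0.0396) and with wild type and Btbd7 KO averaged as control (0.0211). Snora34 needed Zcchc8 KO libraries to enter the test, so the filter favoured its rise. DESeq2 also called Snora30 (0.0404). Snora30 and Snora73b were called without wild type replicate 1, at 1.36 (adjusted p 0.0155) and -0.29 (adjusted p 0.0121). That library also held the highest values of Snora41 (48 counts) and Snora62 (35 counts) in all 20. Without it 12 members rose and 2 fell, beside 2728 and 2901 of all 15547 genes tested. All 11 members named above as called were called again.

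Each clone was also set against wild type alone. In clone 1, 11 members rose (16.7% of all genes tested did) and 1 fell (19.1%). In clone 2, 10 rose (16.1%) and 1 fell (16.2%), and in clone 3, 9 rose (14% as background) and 1 fell (15.3%). All 3 clones shared 9 risers, and Scarna13 fell in each. Of all genes 7.64% rose and 5.82% fell in each clone, and the 3 comparisons share the 4 wild type libraries. The Scarna6 call in clone 3 (adjusted p 0.0364) was lost without wild type replicate 2 or 3 or clone 3 replicate 2, 3 or 4 (adjusted p 0.0684 to 0.114), and with no filter (0.0673). With no filter Snora69 was not called in clone 3 either (0.0611). Snora2b was not called in clone 3 (adjusted p 0.114), and Snora34 was called in clone 1 (log2 2.61, adjusted p 0.0149). The limit of the count filter given above holds for these clone counts too.

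**Figure D3:**
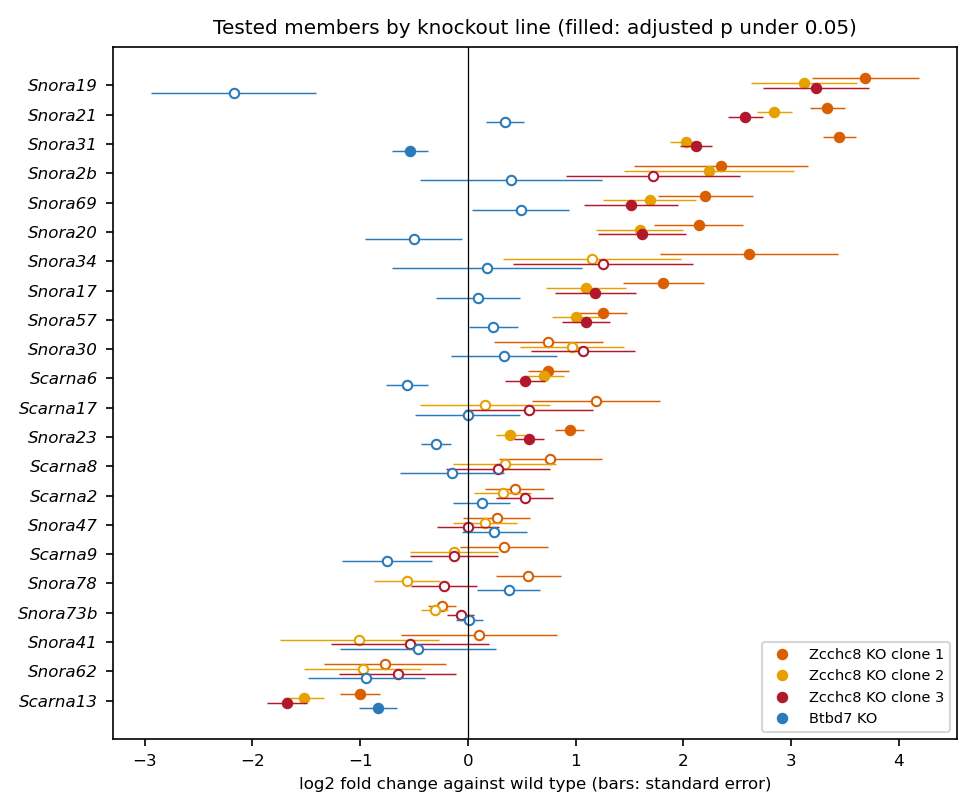
Log2 fold change against wild type for the 22 tested members in each Zcchc8 KO clone and in Btbd7 KO, with standard errors. Filled points have an adjusted p under 0.05. The 9 shared risers lie to the right of 0 in all 3 clones, and 2 Btbd7 KO points are filled, Snora31 and Scarna13, both to the left.

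The clones differed from each other in 5 of the 22 members (22.7%, against 28.5% of all genes tested). Snora31 had log2 values of 3.45 (SE 0.151), 2.02 (0.147) and 2.11 (0.148) in clones 1, 2 and 3 (adjusted p for a difference between clones 2.76e-09). Snora21 stood at 3.34, 2.84 and 2.57 (adjusted p 0.000551), and Snora23 at 0.94, 0.39 and 0.57 (adjusted p 0.00783). These 3 were highest in clone 1. Scarna13 stood at -1.002, -1.52 and -1.68 (adjusted p 0.0219), nearest to wild type in clone 1, a call lost without clone 1 replicate 1 (0.144) or replicate 4 (0.0733). Snora78, in the noncoding host Snhg9, stood at 0.56, -0.57 and -0.22 (adjusted p 0.0171), and no clone was called against wild type. The difference was not called without clone 1 replicate 3 (adjusted p 0.136). All libraries of clone 1 were shallow. Clone 2 replicate 1 (7053304 counts) and clone 3 replicates 2 (7795965) and 3 (7578027) were about as shallow. In these 3 libraries Snora31 stood at 42.8, 61.8 and 69.9 CPM. The part of depth was not tested.

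In Btbd7 KO 0 of the 22 members rose by edgeR (7.73% of all genes tested did), 0 also at an unadjusted p under 0.05 and with DESeq2, and 2 fell (8% as background). At an unadjusted p under 0.05, 5 fell (Scarna6, Snora19 and Snora23 in addition), and DESeq2 called 3, adding Scarna6 (adjusted p 0.0335). No share of all genes is given for these counts or for the left-out libraries below. Scarna13 had a log2 value of -0.83 (adjusted p 0.00161) and Snora31 one of -0.54 (adjusted p 0.0272). Snora31 thus moved against its direction in Zcchc8 KO, but this call was lost without Btbd7 KO replicate 1 (adjusted p 0.122), Btbd7 KO replicate 4 (0.0629) or wild type replicate 3 (0.0545). Without wild type replicate 2, 4 members fell (Scarna6 and Snora23 in addition) and Snora2b rose, and without wild type replicate 1, Snora21 rose (log2 0.58) and Snora19 fell. Scarna13 was lower in both kinds of knockout, and set against Btbd7 KO the Zcchc8 KO clones differed from it by -0.57 (adjusted p 0.00314). Against Btbd7 KO in place of wild type, 9 members rose (18.8% of all genes) and 1 fell (22.2%), the 9 being the risers above without Snora2b. Both comparisons use the same Zcchc8 KO libraries and the same count filter.

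Each member was then compared with its host gene. An annotated same-strand host contains 22 of the 26 members, in 20 distinct genes, and all 4 others (Snora17, Snora57, Scarna2 and Scarna17) lie outside one. The hosts moved less than the members: of 19 tested, 1 rose (Cop1) and 6 fell (Atg16l1, Haus6, Ipo7, Rpl39, Tbrg4 and Tcp1), at log2 values between -0.31 and 0.29, where 16.2% and 19.9% of all genes rose and fell, and the median was -0.063. Tpt1, a translationally controlled protein gene and the host of Snora31, was at -0.0055 (SE 0.064, adjusted p 0.96). Rpl23, a ribosomal protein gene and the host of Snora21, was at 0.16 (adjusted p 0.484), and Eif3a, a translation initiation factor gene and the host of Snora19, at -0.048 (adjusted p 0.472). Snhg10, the host of the falling Scarna13, was at 0.57 (SE 0.546, adjusted p 0.452), with 0 to 1.57 CPM per library.

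The ratio of member to host was tested with the host count of the same library as the offset, in a fit over 447 nested gene pairs. Of 16 members with a host abundant enough, 8 rose relative to the host (13.4% of all pairs did) and 0 fell (0.895% of all pairs), with 0 members falling also at an unadjusted p under 0.05 and with limma on the log2 ratio. These 8 are all the risers that could be tested this way. Members entered through the same count filter, so its limit holds for these ratio counts and those below. Snora19, Snora20 and Snora2b are among the 8. Set against wild type, 9, 7 and 7 members rose relative to the host in clones 1, 2 and 3 (12.8%, 12.3% and 12.1% of all pairs) and 0 fell in any (1.12%, 1.12% and 0.895%). Some of these calls were fragile. In clone 1 those of Snora2b and Snora34 were lost without wild type replicate 3 (adjusted p 0.0957 and 0.0836), among other libraries. With limma at pseudocount 0.5, clone 3 lost Scarna6 (adjusted p 0.0635) and Snora23 (0.124) and gained Snora2b (0.00889). Against Btbd7 KO 8 rose (13.6%) and 0 fell (1.12%). The median log2 ratio change was 0.86 over the 16 members and 0.36 over all pairs.

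Snora31 counted 40.0, 34.1, 41.7 and 39.3 per 1000 Tpt1 counts in wild type and 29.2, 40.7, 32.9 and 32.1 in Btbd7 KO. The ratio was 309, 324, 322 and 292 in clone 1, 175, 207, 144 and 232 in clone 2, and 168, 179, 228 and 181 in clone 3. No Zcchc8 KO library came near a control library (log2 2.53, SE 0.141, adjusted p 1.09e-17). Tpt1 was itself higher in clone 1 (log2 0.44, adjusted p 0.000108) and lower in clone 2 (-0.28, adjusted p 0.00759), and the ratio still differed between clones (adjusted p 0.00228), at 3.01, 2.29 and 2.29. It was the only member whose ratio did, with 0.447% of all pairs called. In Btbd7 KO, where Tpt1 was also lower (-0.33, adjusted p 0.0042), the Snora31 ratio was not called (-0.20, adjusted p 0.749), nor was that of any other member by edgeR's quasi-likelihood test (0.224% of all pairs rose and 0% fell). At an unadjusted p under 0.05, 0 ratios rose and 1, that of Snora19, fell.

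Snora21 counted 50.6, 14.7, 13.1 and 29.4 per 1000 Rpl23 counts in wild type, with replicate 1 high, and 93.9 to 303 in Zcchc8 KO (log2 2.67, SE 0.266, adjusted p 2.34e-10). Snora19 counted 0.296 to 0.575 per 1000 Eif3a counts in wild type and 1.34 to 7.42 in Zcchc8 KO (log2 3.41, SE 0.479, adjusted p 4.29e-07). Scarna6 counted 134 to 181 per 1000 Atg16l1 counts in wild type and 229 to 411 in Zcchc8 KO (log2 0.89, adjusted p 0.000681), so the groups that overlapped in CPM did not overlap in the ratio. Snora20 rose against the chaperonin gene Tcp1 by 1.99 (adjusted p 0.000195), Snora69 against Rpl39 by 1.98 (adjusted p 0.000478) and Snora23 against the importin gene Ipo7 by 0.77 (adjusted p 0.000207). Snora2b and Snora34 share the host Kansl2. Snora2b rose against it by 2.23 (adjusted p 0.0124, or 0.0557 without wild type replicate 4) and Snora34 stood at 1.77 (SE 0.696, adjusted p 0.0903). An exon of Kansl2 covers 67.2% of Snora2b, so reads may be shared between this member and its host.

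**Figure D4:**
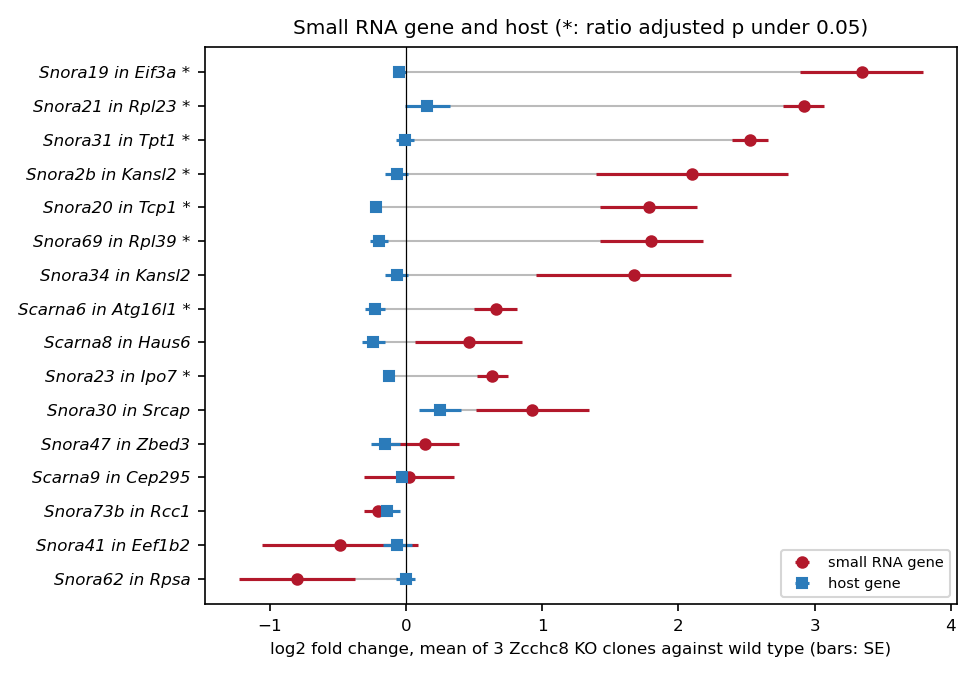
Log2 fold change of 16 members (circles) and their host genes (squares), mean of the 3 Zcchc8 KO clones against wild type, with standard errors. Asterisks mark the 8 pairs whose ratio had an adjusted p under 0.05. The hosts shown lie between -0.24 and 0.25 while the members reach 3.34.

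The remaining 7 ratios stood between -0.90 (Snora62 in Rpsa) and 0.82 (Scarna8 in Haus6) and were not called. Snora73b had 771 to 1229 counts per 1000 counts of Rcc1 in wild type and 690.5 to 1581 in Zcchc8 KO (log2 -0.044, SE 0.154, adjusted p 0.868). Rcc1 was its host here because protein-coding genes came first. The noncoding gene Snhg3, an alternative host, was itself at -0.17 (adjusted p 0.336). The Snora73b ratio was not called under any of 29 alternatives, Snhg3 as host among them (adjusted p at least 0.449). Without wild type replicate 1 the ratios of Scarna8 and Snora30 were called at 1.41 (adjusted p 0.00197) and 1.35 (adjusted p 0.0296).

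The series also counts a region upstream of each gene, where unstable promoter upstream transcripts (PROMPTs) arise, in the 19 libraries other than wild type replicate 1. How far a region reaches is not given in the sources used here, and for an intronic gene it can hold host sequence. Of 17 members with a tested region, 1 region rose in Zcchc8 KO (39.9% of all 17655 regions did) and 2 fell (3.31%). The median log2 value was -0.084 over the 17 and 0.45 over all regions. In clones 1, 2 and 3, 3, 0 and 1 regions rose (39.3%, 36% and 36.7% of all regions) and 1, 2 and 2 fell (3.79%, 3.09% and 2.41%), and 2 differed between clones (10.9%). In clone 2 edgeR called 0 as risen also at an unadjusted p under 0.05. Set against Btbd7 KO, 3 rose (45.6%) and 4 fell (5.77%), and in Btbd7 KO against wild type 0 rose (1.35%) and 0 fell (1.68%), with 0 and 1 (Scarna17) at an unadjusted p under 0.05. Of the 7 risers with a tested region, 0 had a region that rose and 1, Snora20, a region that fell (log2 -0.22, SE 0.0751, adjusted p 0.0147), a call lost without wild type replicate 2 (adjusted p 0.188) or replicate 4 (0.0571). The region of Snora62 rose (0.32, adjusted p 0.00396) and that of Snora73b fell (-0.37, SE 0.0819, adjusted p 0.000162), while neither gene was called. With scaling factors computed from the upstream table itself, 0 members' regions rose and 11 fell, where 30.1% and 21.9% of all regions tested did. The region of Snora31 then stood at -0.30 (adjusted p 0.00674).

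The region upstream of Snora31 held 62.9 to 86.4 CPM in wild type, 94.3 to 113 in clone 1, 53.0 to 87.7 in clone 2 and 68.6 to 86.9 in clone 3. Only clone 1 was called, with a log2 value of 0.48 (adjusted p 0.00032), against 3.45 for the gene itself and 0.44 for Tpt1. The values of the gene and of Tpt1 include wild type replicate 1, which the region values lack. The mean over the clones was 0.097 (SE 0.0946, adjusted p 0.443). Regions of 9 members were not tested, and those of Snora19, Snora21, Snora73a, Snora78 and Scarna13 had 0 counts in all 19 libraries.

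**Figure D5:**
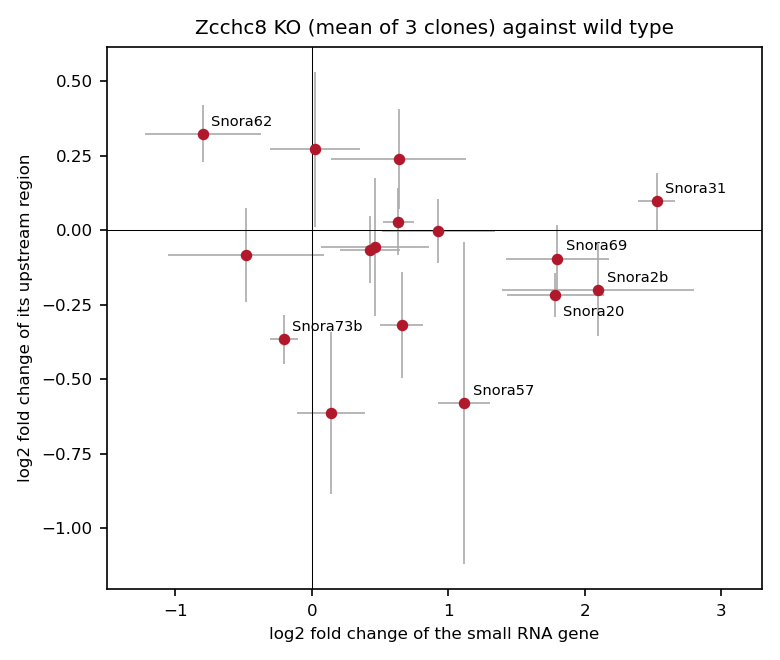
Log2 fold change of the upstream region (vertical) against that of the gene (horizontal) for 16 members with both, mean of the 3 Zcchc8 KO clones against wild type, with standard errors. Snora31 lies far to the right at a height of 0.097, and no region of a risen gene lies above that. The gene values include wild type replicate 1, which the region values lack.

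The proteins of the H/ACA particle were measured in the same libraries. Of 11 genes for core proteins, assembly factors and nucleolar or Cajal body factors, 1 rose and 5 fell in Zcchc8 KO, where 16.2% of all genes rose and 19.9% fell. Of the core proteins, Dkc1, the pseudouridine synthase, fell (log2 -0.41, adjusted p 3.71e-06), as did Gar1 (-0.57, adjusted p 5.04e-05), Nop10 rose (0.20, adjusted p 0.0254) and Nhp2 stood at -0.29 (adjusted p 0.0508). The assembly factors Naf1 (-0.32), Ruvbl1 (-0.40) and Ruvbl2 (-0.28) fell, and Shq1, Nolc1, Coil and Wrap53 were not called. The list median was -0.28. In Btbd7 KO 2 of the 11 rose, Nhp2 and Coil, and 0 fell by edgeR (1, Gar1, at an unadjusted p under 0.05), where 7.73% and 8% of all genes did. Of the 4 core protein mRNAs, Dkc1 and Gar1 thus moved against the risen RNAs, Nop10 moved with them and Nhp2 was not called.

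Of 23 genes for 3′ end trimming and decay, 22 were tested, and 0 rose and 10 fell in Zcchc8 KO by edgeR (16.2% and 19.9% of all genes), with 2 higher at an unadjusted p under 0.05 (Exosc3 and Exosc5) and a median log2 value of -0.21. The fallen genes were the NEXT subunits Zcchc8 (-0.62), Rbm7 (-0.20) and Mtrex (-0.27), the exosome genes Exosc1, Exosc8, Exosc9, Exosc10, Dis3 and C1d, at -0.16 to -0.38, and Zcchc7 (-0.27). Zcchc8 is the edited gene, so its fall is no independent result about the list. Its log2 value was -0.11 in clone 1 (not called), -1.48 in clone 2 and -0.26 in clone 3. The trimming nuclease Parn stood at 0.037 (adjusted p 0.753), and Toe1 at -0.27 (adjusted p 0.0877). In Btbd7 KO 2 of the 22 rose and 1 fell (7.73% and 8% of all genes).

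Set beside the most similar class, the members did not stand apart in number. Of 30 tested Snord genes, which encode the box C/D RNAs, 14 rose and 1 fell in Zcchc8 KO, with a median log2 value of 0.63 against 0.65 for the 22 members. Relative to the host, 10 of 27 Snord genes rose and 0 fell, against 8 and 0 of 16 members. No test compared the classes.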

How the data were processed

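Total RNA of mouse SIMS cells was sequenced with a stranded total RNA kit, per the labels' protocols. The authors deposited raw counts per gene and per PROMPT region, as whole numbers for each library. STAR 2.7.3a and FastQC are listed in the submitters' processing notes, without their roles. The counter, strand setting, genome build and annotation are not given in the sources used here. Symbols, positions, hosts and sequences came from GENCODE M21 (GRCm38), whose identifiers matched 54573 of 55471 genes with version and 55230 without.

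The quasi-likelihood test of edgeR 4.0.16 (R 4.3.3, functions glmQLFit and glmQLFTest) was run on the deposited counts. One fit covered all libraries and 5 groups, with TMM factors from the whole gene table and filterByExpr by group. Calls needed a Benjamini-Hochberg adjusted p under 0.05 over all tested genes, pairs or regions. CPM used the TMM-scaled totals. Hosts are the same-strand genes that contain a member, protein-coding first. Pairs needed a guest under 1000 bases and a host mean of at least 50 counts, and log(host count + 0.5) was the offset. PROMPT regions used the gene table's scaling. Copies were sought with BLAST 2.17.0 over at least 80% of the length. Scripts were tested on simulated data. DESeq2 1.42.0, limma 3.58.1 on log2 ratios (pseudocounts 0.5 and 2), other scalings, filters, controls and left-out libraries were alternatives.

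The members, the lists and the naming rule were chosen with earlier results of these data known. The rule took the 10 highest and 6 lowest called members, the 6 most abundant per kilobase, every tested Scarna gene, the 4 largest called rises relative to the host and the Btbd7 KO calls, with their hosts. Other members were named after their values were seen. Replicate numbers did not pair libraries: 1 of 20 libraries correlated best with its own number. The other 6 feature tables of the series were not used here.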

Additional observations from a re-analysis of the deposited data

Results flagged for a closer look

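In 8 of 110 groups of 4 libraries, 1 library lay far from the other 3, where chance gives about 1 in 20. Wild type held 4 of them. Snora2b had 1.39 CPM in wild type replicate 2 and at most 0.150 in the others, and Snora34 had 1.10 CPM in the same library and at most 0.176 in the others. Snora41 had 3.12 CPM in wild type replicate 1 and at most 0.528 elsewhere in the group, and Snora62 had 2.28 CPM there and at most 0.938. Scarna17 was low in 1 Btbd7 KO library, at 0.181 CPM against at least 0.591. Scarna9 was high in 1 library of clone 1, at 3.52 CPM against at most 1.95, and low in 1 library of clone 3, at 0.954 against at least 1.88. Snora23 was low in replicate 2 of clone 3, at 19.7 CPM against at least 33.7.

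The Zcchc8 KO clones differed in their change for Snora31 (adjusted p 2.76e-09), Snora21 (0.000551), Snora23 (0.00783), Snora78 (0.0171) and Scarna13 (0.0219), by edgeR's quasi-likelihood test with 2 degrees of freedom. These are 5 of the 22 tested members (22.7%), where 28.5% of all genes tested differed between clones. The Snora78 call ended without clone 1 replicate 3 (0.136), and the Scarna13 call without clone 1 replicate 1 (0.144) or 4 (0.0733). What goes with the difference was not tested beyond the values given with each gene.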

How the results depend on the processing

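The count of risen members stayed within 1.5 times its value under all 33 alternatives, between 7 and 13. Counts summed per cell line, 3 clones against wild type and Btbd7 KO as 2 control lines, gave 7 risen and 0 fallen members of 25 tested, beside 5.34% and 0.951% of all genes. The calls of Snora69 (adjusted p 0.0635), Scarna6 (0.06), Snora23 (0.0568) and Scarna13 (0.0844) ended there. DESeq2 called 12 risen and 1 fallen members, beside 3096 and 2645 of all 15297 genes. With no filter 13 of 26 members rose and 2 fell, beside 8.92% and 10.3% of all genes. The added risers were Snora34, Scarna2 (0.43, adjusted p 0.00406) and Snora36b (adjusted p 0.00962, 0 counts in all wild type libraries). Snora73a fell in addition, also in clone 2, where 2 fell. With wild type and Btbd7 KO averaged as control 2 fell (Snora73b in addition), beside 3686 of all 15297 genes. Library totals without TMM turned the split of all genes from 2474 higher and 3046 lower to 3229 and 2005, and the median of all genes was 0.13 without the filter. The Snora23 ratio to the host was not called in clone 2 alone (adjusted p 0.0558).

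Leaving out 1 library at a time gave 9 to 12 risen and 1 to 2 fallen members for the mean of the clones. Of the 15534 to 15658 genes tested then, 2384 to 2728 rose and 2537 to 3043 fell. No share of all genes is given here for the other counts of this paragraph. The risen members were 10 to 13 in clone 1, 7 to 12 in clone 2 and 8 to 11 in clone 3, and the fallen members 1 to 2, 1 to 3 and 1 to 1. In Btbd7 KO 0 to 1 rose and 1 to 4 fell, and 4 to 5 differed between clones. Relative to the host 7 to 10 rose and 0 to 0 fell, and of the upstream regions 1 to 1 rose and 1 to 3 fell. Without wild type replicate 1, 2 members fell in clone 1 and 3 in clone 2. Scaling inside the upstream table gave 0 risen and 11 fallen regions.

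Of the members named by the rule, 2 had values that turned sign, and neither was called. The Scarna9 change turned to -0.13 in clone 2 alone and -0.13 in clone 3 alone, and ran from -0.0886 to 0.268 with 1 library left out, below 0 without wild type replicate 3 or 4, clone 1 replicate 2 or clone 2 replicate 4. The Scarna9 ratio to the host turned to -0.0532 in clone 2 alone and -0.17 in clone 3 alone, and ran from -0.0899 to 0.241 with 1 library left out, below 0 without the same 4. The Snora73b ratio turned to 0.23 with Btbd7 KO as control and 0.0813 in clone 3 alone, and ran from -0.165 to 0.0461 with 1 library left out, above 0 without wild type replicate 2 or 3. Among the others, the Snora62 change of -0.80 was 0.14 with Btbd7 KO as control, Snora41 was at 0.10 in clone 1 alone and Snora78 at 0.56 there, none called. The cause was not tested.

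With the replicate number as a block, 11 members rose and 1 fell, beside 2503 and 2973 of all 15297 genes, and 9 rose relative to the host. Members of few counts, such as Snora2b, Snora34 and Snora19, limit what 4 libraries a group can show.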
